A study of Mus musculus with 12 samples.

Results

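Glucocorticoids act through the glucocorticoid receptor, a nuclear receptor that moves to the nucleus when it binds hormone and switches on target genes, many of them through a short palindromic DNA sequence called the glucocorticoid response element. The proteins made in this way include brakes on growth factor, mTOR and cell cycle signalling, a kinase that controls ion transport, and the metal-binding metallothioneins. The hypothalamus both drives glucocorticoid release and is a target of the hormone, and in the first weeks of life the stress response of rodents is blunted.

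The 10 genes described here are glucocorticoid-induced target genes listed by name from general knowledge, with earlier results of these libraries known. The rows of the deposited count table with these symbols were taken, 10 of 43280 gene rows. They are Tsc22d3, Sgk1, Zbtb16, Fam107a, Errfi1, Ddit4, Cdkn1a, Mt1, Mt2 and Sult1a1. Whether they respond to the hormone in this tissue was not measured, since no library came from a hormone-treated animal.

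The libraries came from the hypothalamus of C57/Bl6 mouse pups at postnatal day 6, 6 controls and 6 that went through modified maternal separation (MMS). This stress model combines short daily absence from the dam, with warmth provided, and repeated handling of the pup into a belly-up posture. Tissue was taken straight after the last session. All pups were male, male littermates were divided between the groups, and the labels do not tie a library to a litter. In this bulk tissue fewer cells of a type and less RNA per cell cannot be told apart.

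Each library was made from the 3' end of polyadenylated RNA, so that the count of a gene does not scale with its length. Levels are given as CPM, the usual share of the scaled library total, and can be compared between genes on that scale. Library totals were 3765759 to 6560620 counts in controls and 3218777 to 5344080 in MMS. All 17 hypothalamic marker genes passed the count filter. Control 3 stood apart by Ttr, the defining gene of choroid plexus, at 1735 CPM against at most 35.5 CPM elsewhere. MMS 2 and MMS 4 stood apart by low motile cilia markers (summed over 15 genes, 30.4 and 56.9 CPM against 128 to 248 CPM in the other MMS libraries and 114 to 250 CPM in controls). Results that rest on MMS 2 or MMS 4 are given with and without them.

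Promoter sequence was examined for the members first, because the list is defined by regulation. RefSeq windows on the build GRCm38.p6, from 250 bases before to 50 bases after each annotated start, were present for 9 of the 10 genes, with Zbtb16 the exception. They were searched on both strands for the glucocorticoid response element in a full form, AGAACA and TGTTCT with any 3 bases between, and in a relaxed form, GNACA and TGTNC with any 3 bases between, which contains the full form. They were also searched for the metal response element, the binding sequence of the zinc-sensing factor of metallothionein genes, as TGCGCNC and TGCACNC, and for TATAAA. The full form lay in 3 of 32851 windows (0.00913%), and 1 of these 3 was a window of Sgk1. The relaxed form lay in windows of 145 of 27025 genes (0.537%), 0.475% of all windows, and of 3 members, Sgk1, Fam107a and Mt1. TATAAA lay in windows of 15.7% of genes (13.6% of windows) and of 2 members, Sgk1 and Errfi1.

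The stretches below hold these matches, written 5′ to 3′ on the strand of the gene, with matches in capitals. They are shown because Sgk1 carries the full palindrome, because Fam107a and Mt1 share the relaxed one, and because Mt2 lies next to Mt1 without it.
Sgk1: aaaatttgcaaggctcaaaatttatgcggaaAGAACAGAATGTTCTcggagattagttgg
Fam107a: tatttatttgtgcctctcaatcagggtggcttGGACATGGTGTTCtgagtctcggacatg
Mt1: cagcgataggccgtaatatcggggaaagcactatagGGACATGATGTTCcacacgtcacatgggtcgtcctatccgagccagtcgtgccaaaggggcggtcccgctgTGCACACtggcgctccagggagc
Mt2: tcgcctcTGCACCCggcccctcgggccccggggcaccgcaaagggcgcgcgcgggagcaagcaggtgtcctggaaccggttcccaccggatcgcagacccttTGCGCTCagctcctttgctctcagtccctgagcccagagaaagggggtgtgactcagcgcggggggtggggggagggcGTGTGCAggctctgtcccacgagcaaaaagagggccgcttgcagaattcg

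The Sgk1 stretch is chr10:21993670-21993729 on the plus strand, with the match 189 bases before 1 of the 6 starts that RefSeq gives, inside the gene's span and outside its annotated exons. The Fam107a stretch is chr14:8309870-8309929 on the minus strand, with the match 118 bases before an internal start, likewise outside exons. The Mt1 stretch is chr8:94178959-94179088 on the plus strand with its glucocorticoid match 94 bases before the RefSeq start, and its last 7 bases lie inside the exon annotated by GENCODE. The Mt2 stretch is chr8:94172388-94172617 on the plus strand and lies before the gene. Its capitals are metal response elements, the last of them on the opposite strand, and in Mt1 the second run of capitals is one. TGCGCNC lay in windows of 4604 of the 27025 genes (15.4% of windows) and of 4 of the 9 members. TGCACNC lay in windows of 14.2% of genes (12.6% of windows) and of 3 of the 9. Genes can have several windows, and Sgk1 has 6. A match is a description of letters. Reads from the 3' end do not show which start a transcript came from.

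In the comparison of MMS with control pups, 8 of the 10 genes passed the count filter and 7 of these 8 measured higher in MMS. With the edgeR quasi-likelihood test, 0 of the 8 passed an adjusted p of 0.05, as did 0 of all 13104 genes tested (0%). At an unadjusted p under 0.05 there were 5 of 8, all higher in MMS (Fam107a, Mt2, Mt1, Errfi1 and Ddit4), where 613 of all genes tested, 4.68%, were higher at the same limit. The median log2 fold change of the 8 genes was 0.52, and that of all genes tested was 0.0009. In 0 of the 10 genes did the groups separate without overlap with MMS higher, which 0.13% of all genes tested did. The genes were listed with earlier results of these libraries known, so no p is given for the list.

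**Figure D1:**
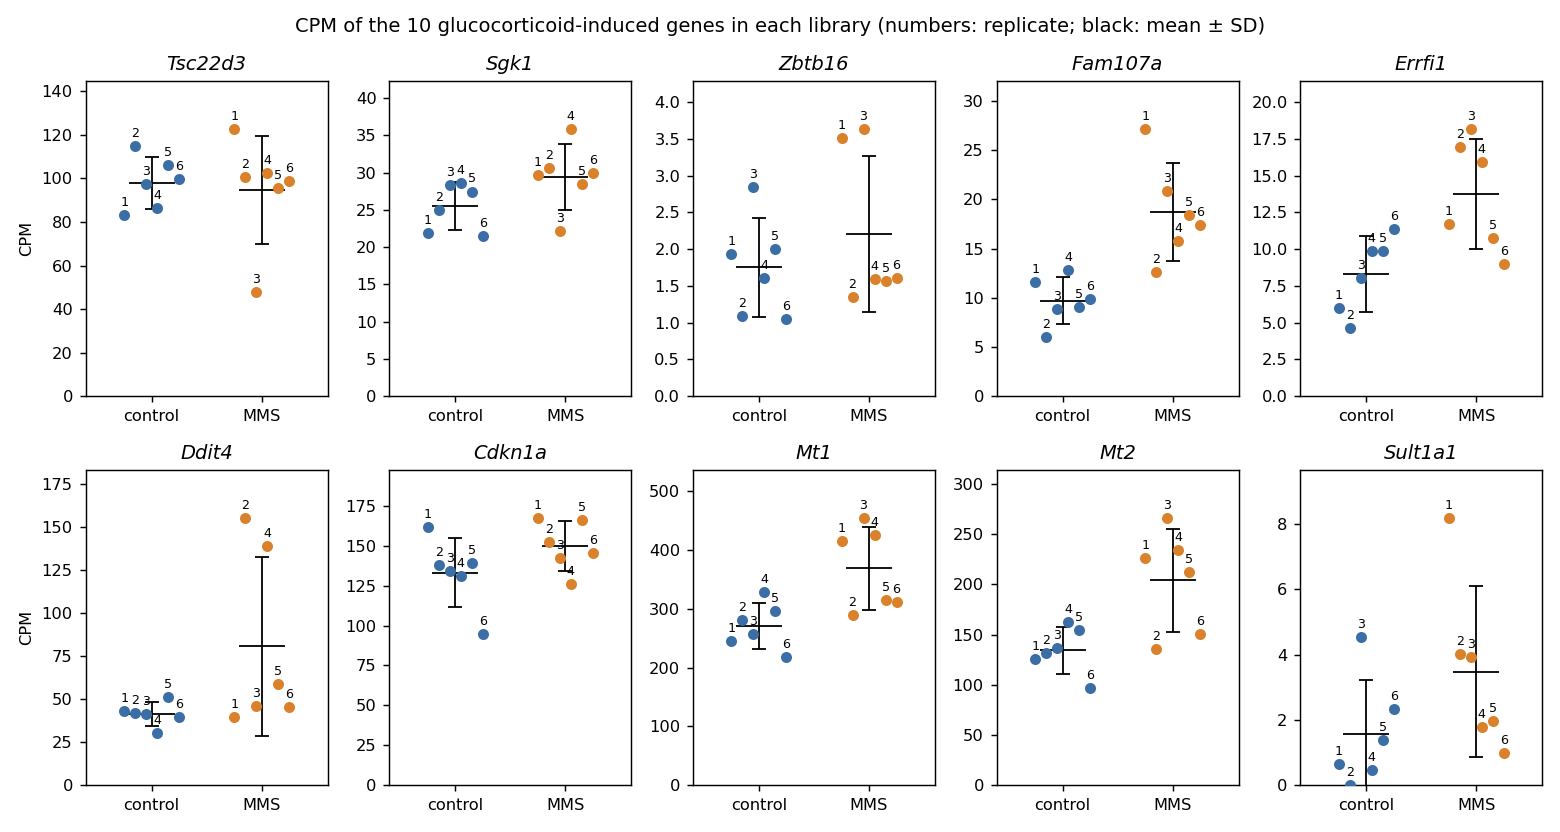
Level of each of the 10 genes in CPM (vertical axes, linear, from 0) in every control (blue) and MMS (orange) library, with replicate numbers beside the points and the mean ± SD in black. In Fam107a, Mt1 and Mt2 all 6 MMS libraries lie above the control median, and 5, 3 and 4 of them lie above every control. The higher Ddit4 mean comes from MMS 2 and MMS 4.

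Fam107a, also called DRR1, encodes an actin-binding protein of brain cells that is induced by stress and glucocorticoids. The gene lies at 14:8296274-8318023 on the minus strand. In controls its level ran from 5.98 CPM over a median of 9.50 to 12.8 CPM, and in MMS from 12.6 over 17.9 to 27.2 CPM. Of the 6 MMS libraries 5 lay above every control, and the sixth, MMS 2 at 12.6 CPM, lay just under control 4 at 12.8 CPM. The means were 9.72 ± 2.38 and 18.7 ± 4.97 CPM (SD, n = 6 per group). The log2 fold change was 0.94 (SE 0.21, edgeR unadjusted p = 0.000156, adjusted p = 0.340), the smallest p of the 10 genes and the sixth smallest of all genes tested. The gene rested on 760 counts, 22 to 116 per library.

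Without MMS 2 and MMS 4 the log2 fold change of Fam107a was 1.11 (SE 0.20) with an edgeR adjusted p of 0.0164. In that fit 5 of 13407 genes (0.0373%) were past the threshold, namely Nr4a3, Fosl2, Per1, Igf1r and Fam107a, and all 4 remaining MMS libraries lay above all controls for Fam107a, as they did for 0.522% of the genes then tested. DESeq2 on all 12 libraries gave an adjusted p of 0.0208. Over the other settings, including the 12 fits that left out 1 library, the adjusted p ran from 0.0925 to 0.714.

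Mt1 and Mt2 encode small cysteine-rich proteins that bind zinc and copper, are strongly expressed by astrocytes, and respond to metals as well as to glucocorticoids. They are neighbours on chromosome 8 in the same orientation, Mt2 at 8:94172664-94173568 and Mt1 at 8:94179082-94180327, both on the plus strand with 5513 bases between them. Mt1 ran from 218 over a median of 269 to 328 CPM in controls and from 290 over 365 to 455 CPM in MMS. The 3 highest MMS libraries (MMS 1, 3 and 4) lay above every control, and all 6 lay above the control median. MMS 2, MMS 5 and MMS 6, at 290, 315 and 312 CPM, lay within the control range. The means were 271 ± 39.1 and 369 ± 71.0 CPM (SD, n = 6 per group), a log2 fold change of 0.44 (SE 0.13, edgeR unadjusted p = 0.00198, adjusted p = 0.471).

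Mt2 ran from 96.5 over a median of 134 to 162 CPM in controls and from 135 over 219 to 266 CPM in MMS. Here 4 MMS libraries (MMS 1, 3, 4 and 5) lay above every control. MMS 2 at 135 CPM and MMS 6 at 150 CPM lay within the control range. The means were 134 ± 23.3 and 204 ± 51.0 CPM (SD, n = 6 per group), a log2 fold change of 0.60 (SE 0.16, edgeR unadjusted p = 0.00103, adjusted p = 0.434). Without MMS 2 and MMS 4 the log2 fold changes were 0.47 for Mt1 (edgeR adjusted p = 0.359) and 0.67 for Mt2 (edgeR adjusted p = 0.232). An antisense transcript, Gm45774, overlaps 749 bases of Mt2, and whether strand was used in the counting is not stated.

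The order of the libraries was nearly the same for both metallothioneins. Of 13103 other genes tested, Mt2 was the one whose order over the 12 libraries was most like that of Mt1, and the reverse held too (rank agreement, Spearman, 0.97, as a description over libraries that share their depth and group). Mt1 held 1.88 to 2.26 counts per count of Mt2 in controls and 1.48 to 2.15 in MMS, with means of 2.03 ± 0.15 and 1.85 ± 0.24 (SD, n = 6 each, p = 0.143 by a two-sided exact permutation test). The lowest ratio was that of MMS 5. A difference of the ratio between the groups was therefore not detected.

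**Figure D2:**
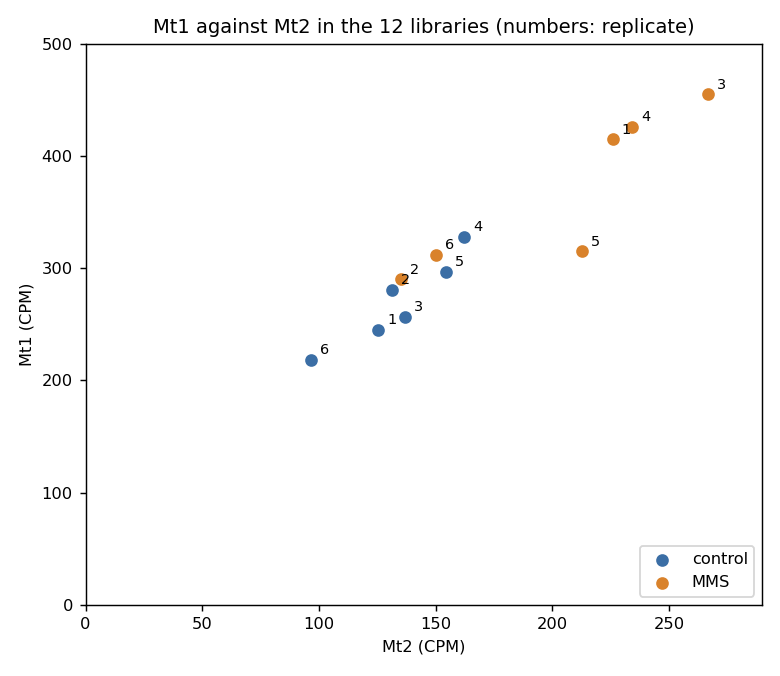
Level of Mt1 (vertical axis, CPM) against Mt2 (horizontal axis, CPM) in each of the 12 libraries, both axes from 0, control blue and MMS orange, with replicate numbers. MMS 1, 3 and 4 lie at the upper end, control 6 at the lower end, and MMS 5 has less Mt1 for its Mt2 level (ratio 1.48) than the others (1.71 to 2.26).

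Errfi1, also called MIG6, encodes an inhibitor of the EGF receptor that is induced by growth factors and glucocorticoids (4:150853919-150868892, plus strand). Its level ran from 4.62 over a median of 8.95 to 11.4 CPM in controls and from 9.02 over 13.8 to 18.2 CPM in MMS. MMS 1, 2, 3 and 4 lay above every control, and MMS 5 and MMS 6 lay within the control range. The log2 fold change was 0.72 (SE 0.23, edgeR unadjusted p = 0.00526, adjusted p = 0.543), on 600 counts in all. It was 0.57 without MMS 2 and MMS 4 (SE 0.25, edgeR unadjusted p = 0.0313, adjusted p = 0.961). Its first 1031 bases overlap the antisense gene 1700045H11Rik, far from the 3' end that was sequenced.

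Ddit4, also called REDD1, encodes an inhibitor of the growth kinase complex mTORC1 that is induced by glucocorticoids, low oxygen, lack of energy and other stresses (10:59949669-59951834, minus strand). In controls it measured 43.3, 42.1, 41.3, 30.03, 51.4 and 39.4 CPM in controls 1 to 6. In MMS 1, 3, 5 and 6 it measured 39.8, 46.0, 59.0 and 45.1 CPM, and in MMS 2 and MMS 4 it measured 156 and 139 CPM. The higher mean in MMS, 80.7 ± 52.2 against 41.2 ± 6.88 CPM (SD, n = 6 per group), thus came from these 2 pups, and in the other 4 only MMS 5 lay above every control. The log2 fold change was 0.97 (SE 0.36, edgeR unadjusted p = 0.0212, adjusted p = 0.543), and without MMS 2 and MMS 4 it was 0.21 (SE 0.14, edgeR unadjusted p = 0.146, adjusted p = 0.964).

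The biological coefficient of variation of Ddit4 between libraries of a group was 42.1%, where genes of its abundance had 16.5%, and for the other 7 tested genes it was 15.1% to 24.4%. On the log2 scale the SD of Ddit4 was 0.25 in controls and 0.86 in MMS. MMS 2 had the highest Ddit4 level and the lowest Fam107a, Mt1 and Mt2 levels of the MMS group.

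Cdkn1a encodes p21, an inhibitor of cyclin-dependent kinases that is a target of p53 and of the glucocorticoid receptor (17:29090976-29100727, plus strand). Its level ran from 94.8 over a median of 136 to 162 CPM in controls and from 126 over 149 to 168 CPM in MMS, with 2 MMS libraries above every control. The log2 fold change was 0.17 (SE 0.12, edgeR unadjusted p = 0.149, adjusted p = 0.630). It was 0.23 without MMS 2 and MMS 4 (SE 0.11, edgeR unadjusted p = 0.0464, adjusted p = 0.961). Control 6 held the lowest value of this gene as well as of Mt1, Mt2 and Sgk1.

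Sgk1 encodes a serum- and glucocorticoid-regulated kinase that acts on ion channels and transporters, and is widely used as a readout of receptor activity (10:21882184-21999903, plus strand). It is the member with the full palindrome shown above. It ran from 21.5 over a median of 26.2 to 28.6 CPM in controls and from 22.1 over 29.8 to 35.8 CPM in MMS. In MMS 1, 2, 4 and 6 it lay above every control, with the lowest of these at 29.7 CPM against a control maximum of 28.6 CPM. The log2 fold change was 0.21 (SE 0.14, edgeR unadjusted p = 0.147, adjusted p = 0.629), and it was 0.12 (SE 0.15) without MMS 2 and MMS 4.

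Tsc22d3, also called GILZ, is a leucine zipper protein that carries much of the anti-inflammatory action of glucocorticoids (X:140539528-140600659, minus strand). It was the only tested gene of the list that did not measure higher in MMS. It ran from 83.1 over a median of 98.5 to 115 CPM in controls and from 47.8 over 99.7 to 123 CPM in MMS, so that 1 MMS library lay above every control and 1 lay below. That lowest library was MMS 3, which had the highest Errfi1, Mt1 and Mt2 levels of all 12. The log2 fold change was -0.05 (SE 0.16, edgeR unadjusted p = 0.771, adjusted p = 0.934). It was 0.09 without MMS 3 and 0.003 without control 2, so its sign depended on those libraries.

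**Figure D3:**
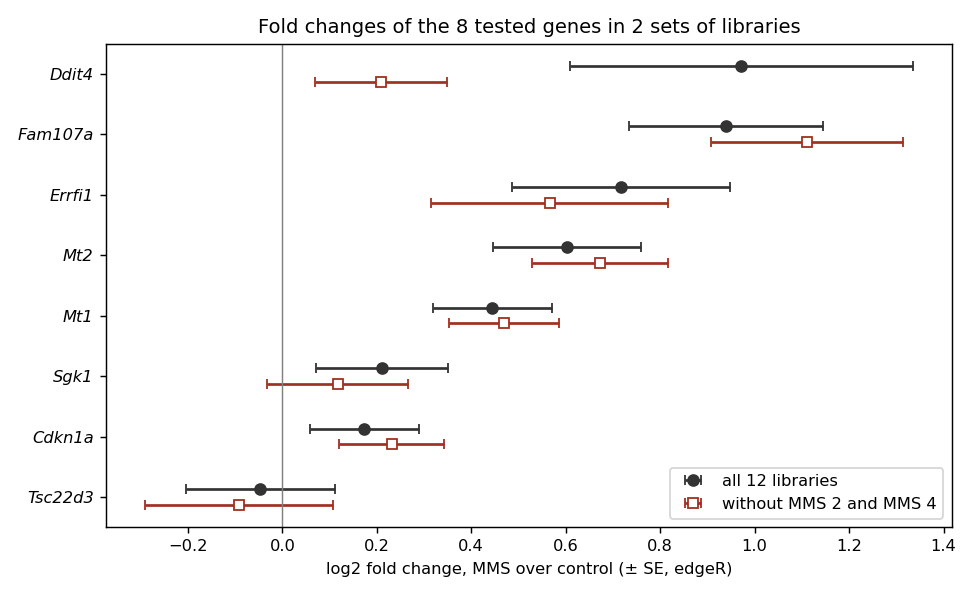
Log2 fold change of MMS over control (horizontal axis, edgeR, bars ± SE) for the 8 tested genes, in all 12 libraries (filled circles) and without MMS 2 and MMS 4 (open squares). Ddit4 moves from 0.97 to 0.21 between the fits, while Fam107a, Mt1 and Mt2 stay between 0.44 and 1.11.

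The remaining genes were too sparse for the fit of all 12 libraries. Zbtb16 encodes PLZF, a zinc finger repressor strongly induced by glucocorticoids in many human cell types (9:48654297-48836222, minus strand), and had 109 counts in all, 4 to 17 per library. Its level was 1.05 to 2.85 CPM in controls and 1.34 to 3.63 CPM in MMS (means 1.76 ± 0.67 and 2.21 ± 1.06 CPM, SD, n = 6 each, p = 0.370 by a two-sided exact permutation test). MMS 1 and MMS 3, at 3.51 and 3.63 CPM, lay above every control and the other 4 between 1.34 and 1.61 CPM. A difference was not detected (ratio of the means 1.26).

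Sult1a1 encodes a sulfotransferase for phenols and catecholamines (7:126672865-126676432, minus strand) and had 138 counts in all. It measured 0.646, 0, 4.53, 0.458, 1.39 and 2.32 CPM in controls 1 to 6, and 8.19, 4.03, 3.94, 1.77, 1.96 and 0.966 CPM in MMS 1 to 6. The 0 in control 2 allows a level of up to 0.815 CPM, from a floor of 3 counts that covers counting error only. The ratio of the means was 2.23 (1.56 ± 1.67 and 3.48 ± 2.62 CPM, SD, n = 6 each, p = 0.158 by a two-sided exact permutation test). The log2 of that ratio was 1.85 without control 3 and 0.72 without MMS 1. When MMS 2 and MMS 4 were left out, Sult1a1 passed the count filter. Its log2 fold change was then 1.20 (SE 0.69, edgeR unadjusted p = 0.101, adjusted p = 0.961). The last 61 bases of Sult1a1 overlap those of Sgf29 on the opposite strand, listed in the table under its older symbol Ccdc101 (14.6 ± 4.82 and 18.8 ± 3.50 CPM, SD, n = 6 per group), and reads there cannot be told apart where strand was not used.

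In control pups Mt1 led, followed by Mt2 (134 ± 23.3 CPM) and Cdkn1a (133 ± 21.7 CPM), which did not differ beyond their spread, then Tsc22d3 (98.0 ± 11.9 CPM), Ddit4 and Sgk1 (25.5 ± 3.19 CPM). Fam107a (9.72 ± 2.38 CPM) and Errfi1 (8.30 ± 2.57 CPM) did not differ beyond their spread, nor did Zbtb16 and Sult1a1 at the bottom (all SD, n = 6). In MMS pups the mean of Fam107a (18.7 ± 4.97 CPM) was above that of Errfi1 (13.8 ± 3.74 CPM), with overlapping libraries.

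Among the 8 tested genes the highest value was found in MMS 1 and MMS 3 for 3 genes each and in MMS 2 and MMS 4 for 1 gene each. The share of all genes tested with their highest value in an MMS library was not counted. These places are therefore a description of libraries and not a difference between the groups. Tsc22d3, with a log2 fold change of -0.05, also had its highest value in an MMS library. Control 6 held the lowest value of 4 genes. MMS 1 led in Fam107a, Cdkn1a and Tsc22d3, MMS 3 in Errfi1, Mt1 and Mt2, MMS 4 in Sgk1 and MMS 2 in Ddit4. The rank agreement between Fam107a and Mt1 over the 12 libraries was 0.78 (Spearman), and between Tsc22d3 and Fam107a it was -0.20.

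The genes most like each member in their order over the libraries were taken from 13103 others, a choice that by itself gives high values. For Fam107a they were Psd2, Slc35e1 and Atpaf1 (Spearman 0.91, 0.88 and 0.87), and for Ddit4 Mtmr7, Gm12497 and Actr3 (0.94, 0.93 and 0.92). For Errfi1 they were Rps6ka6, Prorsd1 and Tpgs2 (0.94, 0.93 and 0.93), and for Sgk1 2410006H16Rik, Gin1 and Zmiz1 (0.92, 0.92 and 0.91). Tsc22d3 was most like Sesn2, Fbxo44 and Herc1 (0.90, 0.85 and 0.83), and Cdkn1a most like Evpl, Smad7 and Snhg1 (0.88, 0.87 and 0.87). After each other, the metallothioneins shared Sptb (0.92 for Mt1 and 0.96 for Mt2), followed by Pcdhb20 for Mt1 (0.89) and Znrf3 for Mt2 (0.90).

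The rest of the pathway was read from a longer list of 30 other genes known to respond to glucocorticoids. This list too was chosen with earlier results of these libraries known, so its counts are a description and not independent support. Of these 20 were tested, 15 measured higher and 5 lower in MMS, and the median log2 fold change was 0.12. At an unadjusted p under 0.05, where 4.68% of all genes tested were higher, 6 genes of this list were higher and 0 lower. Of the list 0 passed the adjusted threshold. The smallest p-values were those of Klf9, a zinc finger factor and direct receptor target (log2 fold change 0.56, SE 0.12, edgeR adjusted p = 0.340), Cebpd, a leucine zipper factor (1.05, SE 0.37, edgeR adjusted p = 0.543), and Nedd9, an adhesion scaffold (0.46, SE 0.19, edgeR adjusted p = 0.543). The other 3 were Gjb6, a gap junction protein of astrocytes (0.66, SE 0.26), Per1, a clock gene (0.61, SE 0.26), and Bcl6, a transcriptional repressor (0.51, SE 0.23). Of these 6, Per1 passed the adjusted threshold without MMS 2 and MMS 4 (0.96, SE 0.14, edgeR adjusted p = 0.000447). In all 12 libraries Per1 ran from 22.5 to 29.4 CPM in controls and from 15.8 to 56.4 CPM in MMS. There 4 MMS libraries lay above every control, while MMS 2 and MMS 4, which that fit left out, lay below every control. The summed level of the list was 692 to 713 CPM in controls and 766 to 881 CPM in MMS 1, 3, 5 and 6, while MMS 2 and MMS 4, the libraries with high Ddit4, had 690 and 698 CPM.

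Without MMS 2 and MMS 4, 8 of 22 tested genes of the longer list were higher at an unadjusted p under 0.05 and 0 lower, and of the 9 then tested members 5 were higher (Fam107a, Mt2, Mt1, Errfi1 and Cdkn1a), with 2.41% of all genes. The median of the members was 0.47. The list of corticosteroid receptors and local steroid metabolism also held coactivators, a receptor chaperone and a steroidogenic factor. Its median in all 12 libraries was 0.01, and 0 of 7 tested genes were at an unadjusted p under 0.05 in either direction (edgeR). Its smallest p-values were those of the coactivator Ncoa1 (log2 fold change 0.24, SE 0.13, and 0.09 without MMS 2 and MMS 4) and the steroidogenic factor Nr5a1 (-0.84, SE 0.52, and -0.34 without them), followed by the glucocorticoid receptor gene Nr3c1. The level of Nr3c1 was 36.5 ± 4.45 CPM in control and 34.2 ± 8.35 CPM in MMS pups (SD, n = 6 each), with a log2 fold change of -0.09 (SE 0.15). Leaving out MMS 2 and MMS 4, it was -0.32 (SE 0.14, edgeR unadjusted p = 0.0320, adjusted p = 0.961), and 1 of the 8 genes of this list then tested was at an unadjusted p under 0.05, with a list median of -0.12.

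Several members answer to other signals, and the other genes of those pathways were counted in the same way. Of all 13104 genes tested, 613 (4.68%) were higher and 577 lower at an unadjusted p under 0.05. Of 8 genes of the zinc and metal response, 5 measured higher, 2 of them at an unadjusted p under 0.05, with a median log2 fold change of 0.14. These were Txnrd1, a thioredoxin reductase (0.64, SE 0.19, edgeR adjusted p = 0.518), and Gclc, which makes glutathione (0.40, SE 0.15, edgeR adjusted p = 0.543). For Mt3, the brain-specific metallothionein, the value was -0.38 (SE 0.19, edgeR adjusted p = 0.556), opposite in sign to Mt1 and Mt2. Without MMS 2 and MMS 4 these were 0.24 for Txnrd1 (edgeR unadjusted p = 0.108), 0.25 for Gclc (edgeR unadjusted p = 0.106) and -0.13 for Mt3. The list median was then 0.04, and 1 gene of the list, neither Txnrd1 nor Gclc, was higher at an unadjusted p under 0.05.

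Of 11 tested p53 targets, which share Cdkn1a's other regulator, 4 measured higher and 7 lower, with a median of -0.07. At an unadjusted p under 0.05, 613 of all 13104 genes tested were higher and 577 lower. Of the p53 targets 0 were higher and 2 lower at that limit. These were Bax, a cell death effector (-0.58, SE 0.20, edgeR adjusted p = 0.543), and Zmat3, an RNA-binding protein (-0.25, SE 0.11, edgeR adjusted p = 0.543). Next came Mdm2, which degrades p53 (-0.27, SE 0.14, edgeR adjusted p = 0.563). With MMS 2 and MMS 4 left out the values were -0.63 for Bax, -0.13 for Zmat3 (edgeR unadjusted p = 0.223) and -0.10 for Mdm2. Of 13 tested hypoxia targets, which like Ddit4 respond to low oxygen, 9 measured higher with a median of 0.19, and 2 were higher at an unadjusted p under 0.05, Bnip3 and Egln3 (0.26, SE 0.11, and 0.58, SE 0.28, edgeR adjusted p = 0.543 and 0.546). Adm, a vasodilator peptide, came next at 0.92 (SE 0.53, edgeR adjusted p = 0.592). With MMS 2 and MMS 4 left out Egln3 was 0.40 (edgeR unadjusted p = 0.216), Bnip3 0.35 and Adm 1.34 (edgeR unadjusted p = 0.0106, adjusted p = 0.961). The summed level of that list was 615 to 697 CPM in controls, 764 and 775 CPM in MMS 2 and MMS 4, and 699 to 738 CPM in the other MMS libraries. Its median without MMS 2 and MMS 4 was 0.02.

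Genes on which Errfi1, Ddit4, Sgk1 and Cdkn1a act were listed as well. Of 14 tested, 6 measured higher and 8 lower, with a median of -0.08. At an unadjusted p under 0.05 were Cdk2, a kinase that p21 inhibits (-0.74, SE 0.22, edgeR adjusted p = 0.508), and Tsc2 and Rheb, which lie between Ddit4 and mTORC1 (0.61, SE 0.25, and 0.51, SE 0.21, edgeR adjusted p = 0.543 for each). Among all 13104 genes tested, 613 were higher and 577 lower at the same limit. Without MMS 2 and MMS 4 the log2 fold changes were 0.12 for Tsc2 and 0.07 for Rheb, while Cdk2 was -0.67.

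**Figure D4:**
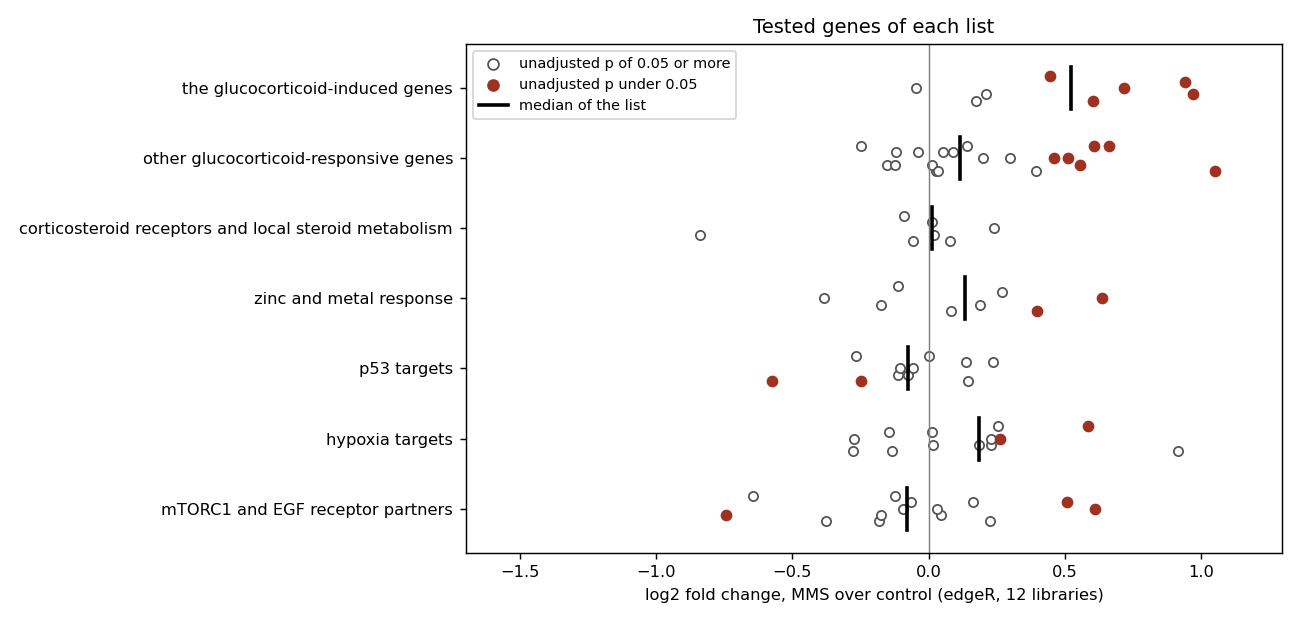
Log2 fold change of MMS over control (horizontal axis, edgeR, 12 libraries) for every tested gene of the 10-gene list and of 6 pathway lists (rows), with unadjusted p under 0.05 filled and the list median as a black bar. The 10-gene list has its median at 0.52 and the other lists lie between -0.08 and 0.19.

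Markers of the cell types that could carry these genes were read beside them. At an unadjusted p under 0.05, 613 of all 13104 genes tested were higher and 577 lower. Astrocyte markers, whose cells are rich in Mt1, Mt2 and Fam107a, summed to 1933 to 2359 CPM in controls and 2302 to 2661 CPM in MMS over 9 genes, with 5 of 9 higher, 1 of them (Aldoc, a glycolytic enzyme, 0.33, SE 0.09) at an unadjusted p under 0.05, and a median log2 fold change of 0.05. The 2 highest sums were those of MMS 4, second of 12 in both Mt1 (426 CPM) and Mt2 (234 CPM), and MMS 2, the lowest of its group in both. Endothelial and pericyte markers summed to 275 to 330 CPM and 224 to 349 CPM (median -0.03 over 13 genes). Of these 13, 4 measured higher and 9 lower. The only 1 at an unadjusted p under 0.05 was Cldn5, the tight junction protein of brain vessels, at -0.60 (SE 0.15, edgeR adjusted p = 0.385). Oligodendrocyte lineage markers summed to 842 to 1209 CPM and 938 to 1260 CPM (median 0.15 over 9 tested), and microglial ones to 173 to 226 CPM and 163 to 217 CPM (median 0.05 over 8). Neuronal markers summed to 7166 to 8011 CPM in controls and 6911 to 7956 CPM in the MMS libraries other than MMS 2 and MMS 4, which had 6278 and 6244 CPM. Gene by gene, 7 of the 9 neuronal markers measured higher and 2 lower, with a median log2 fold change of 0.09. At an unadjusted p under 0.05 (edgeR) 2 were higher and 1 lower, and 0 in either direction without MMS 2 and MMS 4.

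Ependymal cilia markers had a median of -0.66 over 12 tested genes, 0 of them higher, which was -0.26 without MMS 2 and MMS 4. Meningeal markers had a median of -0.37 and red blood cell markers of -0.36. Choroid plexus markers had a median of -0.16, thalamic ones of -0.01 and telencephalic ones of 0.12, and of the pituitary markers 0 were tested. Over the libraries other than MMS 2 and MMS 4 the median was -0.0047 for astrocyte, -0.12 for endothelial and pericyte, -0.27 for choroid plexus and -0.05 for telencephalic markers. The part of cell composition in the levels of the 10 genes was not tested.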

How the data were processed

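3' mRNA libraries (QuantSeq) of 12 hypothalami were sequenced by the authors on an Ion Proton and aligned to mm10 in the Torrent Suite. The authors deposited raw counts per gene, with no normalization or pooling. The counting tool, strand setting and annotation were not given in the sources used here. In 27 rows the symbol had become a date, and these were kept unnamed.

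Groups and replicate numbers came from the titles. Counts were tested over the 13104 genes passing the edgeR count filter (minimum count 10, minimum total 15) with edgeR 4.0.16 in R 4.3.3 (quasi-likelihood, robust, TMM scaling), two-sided, adjusted by Benjamini-Hochberg over all genes tested at 0.05. SE is the absolute log2 fold change over the square root of F. DESeq2 1.42.0 and limma 3.58.1 were alternatives. The steps were tested on simulated data. Genes below the filter were given an exact permutation test of CPM. Coordinates are 1-based, from GENCODE M21 (mm10), and promoter windows from RefSeq.

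The members and lists were chosen with earlier results of these data known. Of each pathway list the 3 genes with the smallest p are named, as are for each tested member the 3 genes most like it, with Gjb6, Per1, Bcl6, Aldoc, Cldn5 and Ccdc101 named after their values were seen. Over 30 within-group pairs of libraries the chi-square per degree of freedom was 4.04 to 31.5, above sampling noise, so all 12 were counted as samples. Pups are treated as independent, and p-values do not account for shared litters.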

Additional observations from a re-analysis of the deposited data

Results flagged for a closer look

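Tsc22d3 in MMS 3, at 47.8 CPM, lay apart from the other MMS libraries, the nearest of which had 95.7 CPM (gap of 0.64 of the group's range, above Dixon's 95% critical value for 6 samples). The values of all 10 genes were examined in both groups, 20 sets in all, and this was the 1 set with such a library. Chance flags about 1 in 20.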

How the results depend on the processing

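The count of members higher at an unadjusted p under 0.05, 5 in the reported fit, was 4 or 5 in every alternative fit, and the median log2 fold change of the tested members ran from 0.44 to 0.68. Of the members, 0 were past the adjusted threshold in the reported fit and 1, Fam107a, with DESeq2 or without MMS 2 and MMS 4 together, against 0 in every fit that left out 1 library. Over all genes, a count added after the data were seen, 0 were past it in the reported fit, 7 with DESeq2, 1 without a count filter, 1 with the replicate block and 5 without MMS 2 and MMS 4, and 0 to 1 on leaving out 1 library. Members without overlap of the groups numbered 0, 1 without MMS 2 and MMS 4, and 0 to 1 on leaving out 1 library (1 without control 4 or MMS 2). With MMS higher, 0.13% of all tested genes separated in the reported fit, 0.522% without MMS 2 and MMS 4, and 0.189% to 0.452% on leaving out 1 library. Tsc22d3 changed sign without control 2 (0.003) and without MMS 3 (0.087), with a range of -0.12 to 0.087 on leaving out 1 library. Ddit4 kept its sign, at 0.70 without MMS 2, 0.75 without MMS 4 and 0.21 without both. The log2 fold changes of the other 6 tested members kept their sign in every fit. Whether the replicate numbers pair littermates is not known. The deviations of same-numbered libraries correlated at -0.04 to 0.12, with 2 of 6 controls most like the MMS library of their own number. Such weak correlations cannot decide it, since the labels do not give the litter. With the replicate block the log2 fold change of Ddit4 was 0.75, with an edgeR adjusted p of 0.549. It was then no longer among the members at an unadjusted p under 0.05, which numbered 4 as they did without MMS 2 or without MMS 4. Zbtb16 and Sult1a1 rest on few counts, and their ratios on a log2 scale ran from 0.13 to 0.56 and from 0.72 to 1.85.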
